A study of Macaca fascicularis with 44 samples.

Results

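The comparison described here was made between cortical brain endothelial cells (ECs) of the cynomolgus monkey before and after one passage in culture. It used 14 of the 44 RNA libraries of the study, chosen by their labels: all 8 cortical libraries of cells kept in culture for 7 days after isolation (P0D7) and all 6 libraries of cortical cells that were then detached, plated again and grown for another 7 days (P1D7). Of the 28623 gene identifiers counted, 11480 were tested, those that reached 1 FPKM (a level in fragments scaled to gene length and to the library's total) in 50% or more of the libraries of a fraction. The question was how far the transcriptome of the cells moved between the first plating and the second.

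The study isolated microvessels from the brains of cynomolgus monkeys (Macaca fascicularis), cultured their ECs as a model of the blood–brain barrier (BBB), and sequenced the microvessels (P0D0), the P0D7 cells of 5 brain structures and the P1D7 cells of the cortex. The animals were of both sexes and had been at disposal after pre-clinical studies, and the labels give neither the age nor the sex behind a library. Both fractions compared here came from cortical tissue freed of meninges and white matter, digested enzymatically and spun on a gradient. Both were grown in EBM-2 medium with EGM-2 MV supplements, and both descend from cells exposed to puromycin in P0 culture. The drug was lowered and later removed during P0, and the study names none for P1. P1D7 thus differs from P0D7 by detachment, a second plating, the added days and the time since puromycin together.

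Each library carries a code, BBB with a number, which is read here as the preparation it came from, since the labels do not say what the code stands for. The codes BBB029, BBB030, BBB031, BBB032, BBB035 and BBB036 have 1 library in each fraction, and BBB027 and BBB028 have a P0D7 library alone. P0D7 replicates 1 to 8 follow the codes in ascending order, and P1D7 replicates 1 to 6 are BBB029, BBB030, BBB031, BBB032, BBB035 and BBB036. With the code as a block, p-values measure how the difference between P1D7 and P0D7 varies among the codes found in both fractions. BBB027 and BBB028, each with a block of its own, do not inform that difference. The P1D7 libraries also carry later serial numbers than the P0D7 libraries, and library order and fraction cannot be told apart.

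Brain ECs form the wall of the capillaries of the central nervous system. They are joined by tight junctions, carry efflux pumps and nutrient carriers, and take up selected proteins by receptor-mediated transcytosis, and in the tissue they are held in this state by pericytes, astrocytes and flowing blood. Puromycin is a substrate of the efflux pumps that brain ECs carry, so that its addition to a primary culture favours ECs over cells that lack those pumps. Detaching and re-plating a primary culture breaks its junctions and lets the cells divide again until they form a new monolayer.

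The files name genes by Ensembl identifiers without symbols, and a table of gene symbols matched 0 of these 28623 identifiers. Junction proteins, transporters, receptors and markers of other cell types could thus not be looked up, and the endothelial label of the cells was not checked against markers. The results below describe the change over all genes, by level, length and preparation, and name 4 identifiers without a function. In bulk RNA, fewer cells of a type and less RNA per cell cannot be told apart.

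Total counts ran from 15513781 to 23138726 read pairs per library in P0D7 (n = 8) and from 17150398 to 19849831 in P1D7 (n = 6). No library repeated another. Over the 43 pairs within a fraction, the mean chi-square per gene, which is 1 where sampling alone separates a pair, was at least 21.4.

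The libraries P0D7 replicates 1, 2 and 7 stood apart from the other 5 and closer to P1D7. On the first principal component of the 14 libraries (47.9% of the variance of log2 CPM, counts scaled to the library's total), the P1D7 libraries lay between 33.5 and 46.9. P0D7 replicates 3, 4, 5, 6 and 8 lay between -59.6 and -26.2. P0D7 replicate 1 (BBB027) lay at 4.07, replicate 2 (BBB028) at -4.76 and replicate 7 (BBB035) at 7.32. The P1D7 library of BBB035 lay at 39.0, among the other P1D7 libraries, so that within BBB035 the distance between the fractions was the shortest of the 6 codes. The number of calls, the length bins, the spread and the 4 identifiers are given with and without BBB035, and the number of calls also without all 3 codes.

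**Figure D1:**
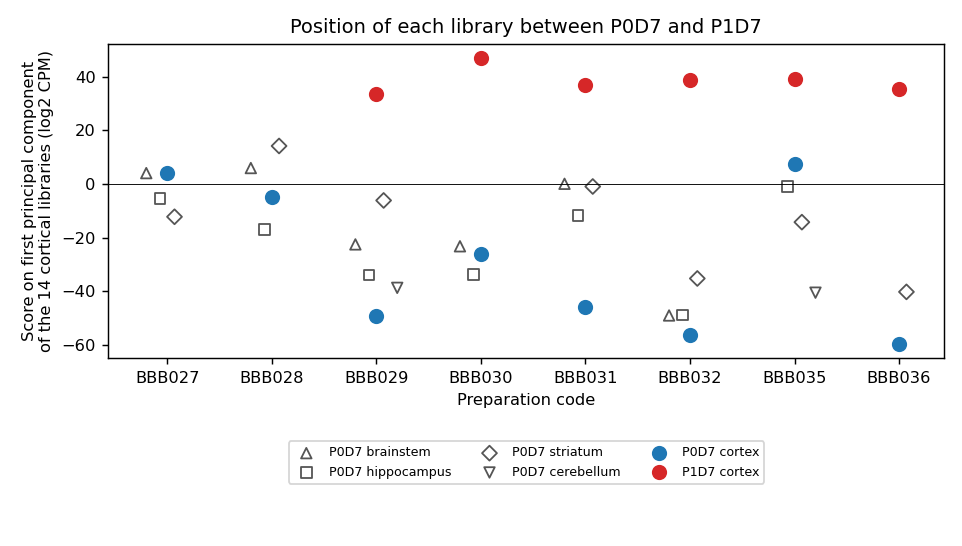
Score of each library on the first principal component of the 14 cortical libraries (y axis, log2 CPM) by preparation code (x axis), with filled points for the cortical P0D7 (blue) and P1D7 (red) libraries and open symbols for P0D7 libraries of other structures placed on the same axis. All P1D7 libraries lie at 33.5 or above, all P0D7 libraries at 14.2 or below, and the cortical P0D7 libraries of BBB027, BBB028 and BBB035 lie between -4.76 and 7.32.

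The P0D7 libraries of the other structures took no part in building that axis and were placed on it afterwards. Their serial numbers form a separate series that reuses numbers of the cortical libraries, so structure and library series cannot be told apart. The 22 of them spanned -49.0 to 14.2 with a median of -15.6, and none reached the P1D7 range. The highest was the striatum of BBB028 at 14.2. The hippocampus and the striatum of BBB035 lay at -0.993 and -14.2, and its cerebellum at -40.5. The brainstem, hippocampus and striatum of BBB032 lay at -49.0, -48.8 and -35.2. In BBB031, whose cortical P0D7 library lay at -45.8, the brainstem lay at 0.0953, the hippocampus at -11.7 and the striatum at -0.909. P0D7 cultures of 1 code could thus sit far apart on this axis, while the 6 P1D7 libraries sat close together.

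Re-plating was accompanied by changes of similar extent in both directions. With the code as a block, 2713 of the 11480 genes were called (23.6% of those tested), where a call asks for a change of 1.5-fold or more together with a p of 0.05 or less in edgeR's quasi-likelihood test after Benjamini-Hochberg adjustment. Of these, 1354 rose in P1D7 (11.8% of those tested) and 1359 fell (11.8%). The median change of the genes that rose was 1.91-fold, and that of the genes that fell was 2.13-fold. The fold changes of 8519 genes (74.2%) lay within 1.5-fold of P0D7 in either direction, and the median log2 fold change over all genes tested was -0.0035.

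Large changes were few. Among the genes that rose, 750 changed by less than 2-fold, 141 by at least 4-fold, 40 by at least 8-fold and 15 by at least 16-fold. Among the genes that fell, 606 changed by less than 2-fold, 213 by at least 4-fold, 41 by at least 8-fold and 13 by at least 16-fold. A further 2669 genes reached the adjusted p but changed by less than 1.5-fold, and 248 changed by at least 1.5-fold without reaching it.

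The equal split holds relative to the scaling used, which sets the bulk of genes at no change (TMM, trimmed mean of M-values). Scaled to total counts alone, the median gene moved by -0.19 on the log2 scale, and 868 genes rose against 2211 that fell (26.8% of those tested). The P1D7 libraries gave TMM factors of 0.921 to 0.959, all below the 0.961 to 1.11 of P0D7. Folds and directions below are relative to the bulk of genes, on the TMM scale, unless FPKM is named.

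The block and BBB035 moved the number of calls. Fitted without the block, 759 genes rose and 1125 fell (16.4% of those tested), and 1831 of these 1884 calls were also made with it. Without both libraries of BBB035, an alternative chosen after seeing the data, 1690 genes rose and 1666 fell (29.2%). Without the libraries of BBB027, BBB028 and BBB035, likewise chosen after seeing the data, 1707 rose and 1638 fell (29.1%). BBB027 and BBB028 each have a block of their own, so this fit nearly repeats the one without BBB035. It cannot show how BBB027 and BBB028 bear on the number of calls, and no fit without the block is given without them.

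**Figure D2:**
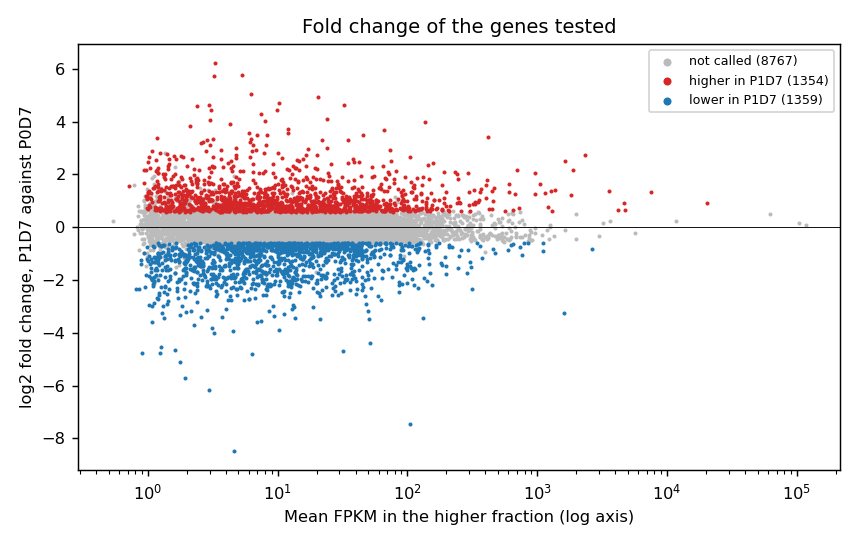
Fold change of each of the 11480 genes tested (y axis, log2, P1D7 against P0D7, edgeR) by its mean level in the fraction where it was higher (x axis, FPKM, log axis), with called genes in red (1354 higher) and blue (1359 lower). Calls in both directions are found from the lowest levels to those above 100 FPKM.

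Calls were less frequent at middle levels than at low or high ones. Among the 966 genes under 2 FPKM in their higher fraction, 17.6% rose and 16.3% fell, and among the 1697 of 2 to 5 FPKM 16.4% and 15.6%. In the middle, among 5274 genes of 10 to 50 FPKM, 8.61% rose and 10.0% fell. Among the 671 genes of at least 100 FPKM, 118 rose (17.6%) and 72 fell (10.7%). At the lowest levels a gene could enter the test through the fraction where it was higher alone. The filter thus favours calls there, and how much of the larger share comes from it was not tested.

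Few genes crossed the limit of detection used. Of the genes tested, 10815 were expressed in both fractions, by the rule of 1 FPKM in 50% of the libraries, 393 in P0D7 alone and 272 in P1D7 alone. The 393 had a median level of 1.41 FPKM in P0D7 and of 0.663 FPKM in P1D7, and 262 of them were called lower. The 272 went from 0.812 to 1.25 FPKM, and 161 of them were called higher. Over all genes tested, 11.8% were called in each direction. Both sets were picked for passing the rule in 1 fraction alone, so their direction and their calls follow largely from that choice. No gene (0 in either direction) had at least 1 FPKM in every library of one fraction and less than 0.1 FPKM in every library of the other.

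Separation of every library from every library of the other fraction was less common than a call. In log2 CPM on the TMM scale, 556 genes had all 6 P1D7 libraries above the highest of the 8 P0D7 libraries (4.84% of those tested), and 655 had them below the lowest (5.71%). Among the called genes this held for 360 of those that rose (26.6%) and 492 of those that fell (36.2%). In FPKM, which carries no TMM scaling, the split was uneven, with 274 genes above (2.39%) and 1069 below (9.31%).

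The most abundant genes took a larger share of the RNA after re-plating. Of the 100 most abundant genes of each fraction by mean share of counts, which is not scaled to gene length, 82 were common to both. Among the 100 of P1D7, 48 were called higher and 2 lower, and among the 100 of P0D7, 32 were called higher and 9 lower, against 11.8% of all genes tested in each direction. Choosing by the level in P1D7 favours genes that are higher there, and choosing by the level in P0D7 the reverse. The 48 genes together held 6.69% to 12.1% of the counts of a P0D7 library (8.91% ± 2.12, SD, n = 8) and 16.3% to 17.7% of a P1D7 library (17.0% ± 0.599, n = 6). No P0D7 library reached the lowest P1D7 library. P0D7 replicates 1, 2 and 7 held 12.1%, 10.9% and 10.5%, the highest of the P0D7 libraries, and the other 5 held 6.69% to 9.51%. Since the 48 were picked as called, these shares describe the size of the change and do not test it.

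The same held over all called genes. The 1354 genes that rose held 11.7% to 20.6% of the counts in P0D7 (15.4% ± 3.74) and 26.3% to 27.5% in P1D7 (27.0% ± 0.454). The 1359 genes that fell held 5.28% to 9.99% in P0D7 (7.68% ± 1.98) and 3.21% to 3.63% in P1D7 (3.46% ± 0.140). The genes that rose thus held more of the counts than the genes that fell at both stages.

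Measures of whole libraries, which used no calls, were compared over the 6 codes found in both fractions. The 100 most abundant genes of each library held 28.0% ± 2.24 of its counts in P0D7 (n = 8) and 34.1% ± 0.615 in P1D7 (n = 6). Within the codes the share was higher in P1D7 by 7.00 percentage points on average (SD 1.56) and in 6 of 6 codes (exact two-sided sign-flip test p = 0.03125, the smallest that 6 codes allow, adjusted p = 0.09375 over 3 measures). Genes with at least 1 FPKM numbered 11136 ± 84.2 per library in P0D7 and 10995 ± 46.6 in P1D7, with a mean difference within the codes of -128 genes and fewer genes in 5 of 6 codes (exact p = 0.0625, adjusted p = 0.09375). Total counts differed by less than their spread (exact p = 0.40625). None of the 3 measures passed 0.05 after adjustment. With 6 codes, a measure that alone reaches the smallest p adjusts to 0.09375, so the share of the 100 genes could not have passed by itself.

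The codes differed in how far P1D7 lay from P0D7, and BBB035 showed the smallest change. The number of genes whose log2 CPM differed by at least 2-fold between the P1D7 and the P0D7 library of a code was 1760 in BBB029, 1368 in BBB030, 1734 in BBB031, 2143 in BBB032, 1008 in BBB035 and 2158 in BBB036. Of the genes called higher over all codes, 997 were higher in 6 of 6 codes (73.6%), and 355 in 5, of which 297 had BBB035 as the exception. Of those called lower, 1063 were lower in 6 of 6 codes (78.2%), and 283 in 5, of which 234 had BBB035 as the exception. As a description across genes, which are not independent replicates, the ratios of any pair of codes without BBB035 correlated at 0.770 to 0.863 (10 pairs), and those of BBB035 with the other codes at 0.346 to 0.493 (5 pairs).

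Each code was then read with genes called in a fit that left out both of its libraries, so that its own values entered the choice only through the filter on level, which used all 14 libraries. In BBB029, BBB030, BBB031, BBB032 and BBB036, between 96.9% and 99.3% of the genes called higher in the other libraries were also higher in the code left out, and between 97.3% and 99.1% of the genes called lower were lower. Over all genes tested, 48.1% to 50.3% were higher in the P1D7 library of a code. In BBB035 the shares were 65.6% (1108 of 1690 genes) and 71.7% (1194 of 1666).

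The size of the change carried over in the same way. For the genes called higher, the median log2 ratio was 1.12 in BBB029 when that code was left out, 0.80 in BBB030, 1.00 in BBB031, 1.09 in BBB032 and 1.19 in BBB036, beside fitted medians of 0.94 to 0.96 in the other libraries. In BBB035 it was 0.21. For the genes called lower, the medians were -1.11, -0.97, -1.04, -1.51 and -1.40 in the first 5 codes named, and -0.33 in BBB035. The direction found in the other codes was thus shared by most genes in BBB035, at a smaller size.

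**Figure D3:**
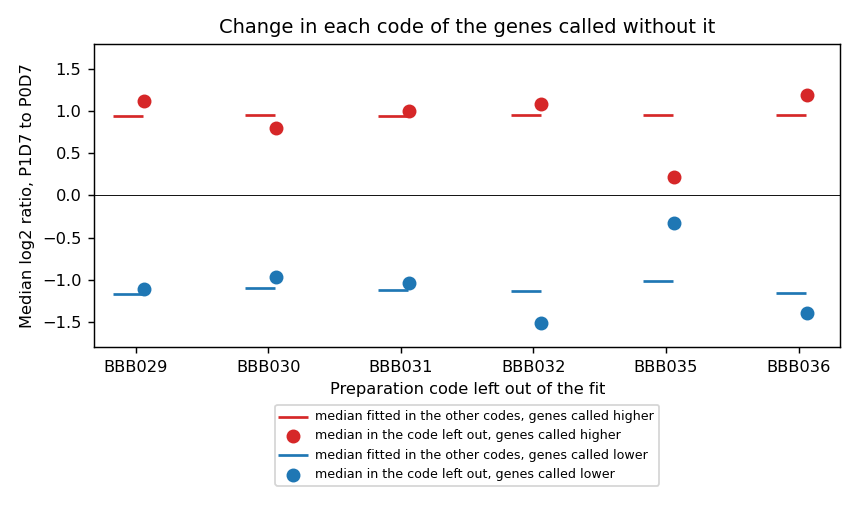
Median log2 ratio of P1D7 to P0D7 (y axis) in each preparation code (x axis) for genes called without that code's libraries, with points for the code left out, short lines for the medians fitted in the other libraries, and genes called higher in red and lower in blue. The points lie near the lines in all codes but BBB035, where they stand at 0.21 and -0.33.

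The largest changes among well expressed genes are shown by 4 identifiers, 2 with the largest rise and 2 with the largest fall. They were taken from called genes with a mean of 10 FPKM or more in the fraction where they were higher, the same direction in 6 of 6 codes, no overlap in FPKM, and a sum of 4 counts or more in the fraction where they were lower. The conditions left 153 genes that rose and 332 that fell. The identifiers carry no symbol in the files, and no function is given for them.

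ENSMFAG00000045186 went from a low level in P0D7 to a moderate one in P1D7. Its levels in the P0D7 libraries ran from 0.384 to 3.60 FPKM with a median of 0.797, and in the P1D7 libraries from 14.0 to 42.8 FPKM with a median of 16.0. The fractions did not overlap, and the highest P0D7 levels were those of replicate 2 (3.60), replicate 1 (2.11) and replicate 7 (1.08). It rose 30.9-fold (log2 fold change 4.95 ± 0.32, SE, edgeR adjusted p = 3.53e-05). The size depended on the block, since the log2 fold change was 4.15 without it, and 5.16 with the block but without both libraries of BBB035. The P1D7 library of BBB032, at 42.8 FPKM, stood well above the next one at 19.0. In the 20 P0D7 libraries of brainstem, hippocampus and striatum, which were not used in the choice, it lay between 0.343 and 5.94 FPKM, and in the 2 of cerebellum at 0.200 and 0.242 FPKM, also below all of P1D7. In the P0D0 microvessels it lay at 0.320 ± 0.212 FPKM (SD, n = 8).

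ENSMFAG00000043096 rose from a low level as well. It lay between 0.271 and 4.13 FPKM in P0D7 with a median of 1.88, and between 10.8 and 67.0 FPKM in P1D7 with a median of 27.6. The lowest library of each fraction was that of BBB029, at 0.271 and 10.8 FPKM, and the ratios within the codes, on the log2 scale, ran from 4.13 (BBB036) to 5.23 (BBB029). It rose 24.8-fold (log2 fold change 4.63 ± 0.16, SE, edgeR adjusted p = 3.62e-06). In BBB035 the log2 ratio was 4.24, close to that of the other codes. Without both libraries of BBB035 the log2 fold change was 4.69. In the 20 P0D7 libraries of brainstem, hippocampus and striatum it lay between 0.102 and 7.79 FPKM, in the 2 of cerebellum at 0.249 and 1.33 FPKM, and in P0D0 at 4.53 ± 2.83 FPKM (n = 8).

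ENSMFAG00000028248 was well expressed in P0D7 and near the limit of detection in P1D7. Its P0D7 levels ran from 11.7 to 242 FPKM with a median of 74.2, and its P1D7 levels from 0.234 to 1.19 FPKM with a median of 0.347. Summed over libraries, 14733 counts in P0D7 stood against 44 in P1D7. The lowest P0D7 level (11.7) and the highest P1D7 level (1.19) both belonged to BBB035. It fell 175-fold (log2 fold change -7.45 ± 0.71, SE, edgeR adjusted p = 0.000209), and the log2 ratio within the codes ran from -9.26 to -3.05, the smallest change being that of BBB035. Without P0D7 replicate 7, P1D7 replicate 5 or both, which are the libraries of BBB035, the log2 fold change was -8.48. In the 20 P0D7 libraries of brainstem, hippocampus and striatum it lay between 9.87 and 144 FPKM, in the 2 of cerebellum at 76.0 and 704 FPKM, and in P0D0 at 1.60 ± 1.08 FPKM (n = 8), where no library exceeded 2.89 FPKM.

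ENSMFAG00000035516 fell to a low level after re-plating. It lay between 7.44 and 69.4 FPKM in P0D7 with a median of 33.2, between 0.632 and 2.72 FPKM in P1D7 with a median of 0.968, and at 67.5 ± 29.1 FPKM in P0D0 (n = 8). The 3 lowest P0D7 libraries were replicate 7 (7.44), replicate 1 (8.53) and replicate 2 (12.4). From P0D7 to P1D7 it fell 25.8-fold (log2 fold change -4.69 ± 0.33, SE, edgeR adjusted p = 5.53e-05), and the smallest change within a code was the log2 ratio of -2.45 in BBB035. Without both libraries of BBB035 the log2 fold change was -4.93. In the 20 P0D7 libraries of brainstem, hippocampus and striatum it lay between 13.8 and 60.2 FPKM, and in the 2 of cerebellum at 34.9 and 247 FPKM.

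**Figure D4:**
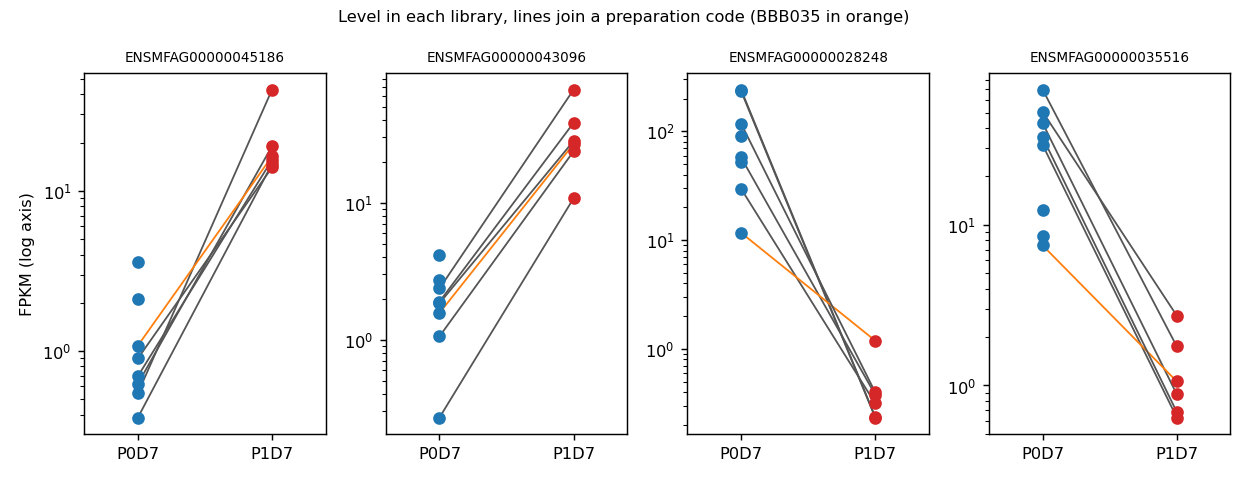
Level of the 4 identifiers (y axes, FPKM, log axes that differ between panels) in the 8 P0D7 and 6 P1D7 cortical libraries, 1 point per library, with lines joining the libraries of a preparation code and BBB035 in orange. In each panel the 2 fractions do not overlap, and for ENSMFAG00000028248 and ENSMFAG00000035516 the line of BBB035 is the least steep.

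Longer genes rose more often and shorter genes fell more often. Genes were placed in 5 bins of equal size by length. The length, taken from each gene's count and FPKM in these libraries (median over the 14), was available for all 11480 genes. In the shortest bin (68 to 1278 bases) 8.67% of genes rose and 13.0% fell, with a median log2 fold change of -0.08 over all genes of that bin. In the longest bin (4168 to 21980 bases) 16.4% rose and 9.67% fell, with a median of 0.11. The 3 bins between them lay in order, at medians of -0.08, -0.02 and 0.03. The share that fell was highest in the next-shortest bin, at 14.0%, and not in the shortest.

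The trend was also present among well expressed genes. Among those of at least 10 FPKM, 6.83% rose and 14.3% fell in the shortest bin, against 15.1% and 5.84% in the longest. Within the codes, the median log2 ratio of the shortest bin was below that of the longest in BBB029 (-0.06 and 0.12), BBB030 (-0.15 and 0.10), BBB031 (-0.09 and 0.12), BBB032 (-0.14 and 0.20) and BBB036 (-0.10 and 0.16). In BBB035 the order was turned (0.03 and -0.04). With the length trend of each library removed, an alternative chosen after seeing the data, 1305 genes rose and 1333 fell (23.0% of those tested). The shares that rose and fell were then 9.10% and 11.0% in the shortest bin and 12.4% and 11.9% in the longest. Without both libraries of BBB035, and with the length trend kept, they were 11.1% and 16.0% in the shortest bin and 19.5% and 11.3% in the longest. Whether RNA integrity or library preparation moved with length was not tested, as no such value was used here.

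**Figure D5:**
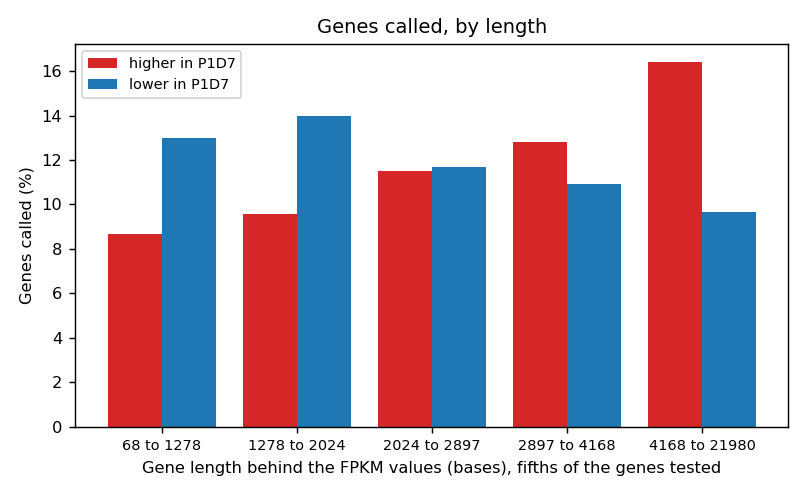
Share of genes called higher (red) and lower (blue) in P1D7 (y axis, percent of genes) in 5 bins of equal size of the 11480 tested genes by gene length (x axis, bases). The share called higher goes from 8.67% in the shortest bin to 16.4% in the longest, and the share called lower is 13.0% and 9.67% in those bins. The share called lower is highest in the next-shortest bin, at 14.0%.

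Libraries of re-plated cells varied less among themselves than those of first-plated cells. The biological coefficient of variation, edgeR's common estimate of the spread between libraries, was 30.3% in P0D7 (n = 8) and 19.2% in P1D7 (n = 6). Over the 6 codes found in both, 8929 of the 11480 genes (77.8%) had the smaller SD of log2 CPM in P1D7, with median SDs of 0.28 in P0D7 and 0.17 in P1D7. Much of this gap came with BBB035. Without it, the coefficients were 22.8% and 19.3% (n = 5 each), 62.5% of genes had the smaller SD in P1D7, and the median SDs were 0.22 and 0.17. The difference in spread was not tested. The P0D7 libraries of brainstem, hippocampus and striatum had coefficients of 28.9%, 25.2% and 28.6%.

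P1D7 libraries did not always resemble the P0D7 library of their own code most. As a description across genes, the log2 CPM of the P1D7 and P0D7 libraries of a code correlated at 0.917 to 0.962, P1D7 libraries correlated with each other at 0.965 or more (15 pairs), and P0D7 libraries with each other at 0.920 to 0.981 (28 pairs). The P0D7 library nearest to a P1D7 library was that of its own code for BBB030 and BBB035, and that of BBB027 for the other 4.

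The 6 P1D7 libraries were also set against P0D7 cells of other structures in place of the cortical ones, an alternative chosen after seeing the data, with the code as a block. Against brainstem (6 libraries, 4 codes in common) 877 genes rose and 753 fell (14.2% of those tested). Against hippocampus (7 libraries, 5 codes in common) 1114 rose and 1173 fell (20.0%). Against striatum (7 libraries, 5 codes in common) 803 rose and 804 fell (14.1%). These comparisons share the P1D7 libraries with the cortical one and have fewer libraries. In them P1D7 differs from P0D7 in structure and in the series of library serial numbers as well as in passage. The counts thus stand side by side without a test between them.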

How the data were processed

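RNA was depleted of ribosomal RNA, made into directional libraries and sequenced in pairs. The authors processed the reads in ArrayStudio: ribosomal, short and low-quality reads were removed, and the remainder was aligned with the Omicsoft Sequence Aligner to the cynomolgus genome assembled at Washington University. Then read pairs were counted over the Ensembl gene model. The deposited estimated counts per gene are not normalized, and 1.53% of the values used here are not whole, so they were rounded. The deposited FPKM values are scaled by the authors to gene length and library total, and served for the filter, levels and 2 alternatives. The files hold 0 sample columns that were left unmapped.

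Counts were tested in R 4.3.3 with edgeR 4.0.16 (TMM, trended dispersion, quasi-likelihood F test) over all 11480 genes, with p-values adjusted by Benjamini-Hochberg and a call at 1.5-fold and 0.05. Log2 CPM used a prior count of 2. Counts carry no molecular identifiers. The samples, the rules and the alternatives were chosen with earlier results of these data known. The code was used as a block. As a check of the pairing, deviations from the fraction means were correlated between the libraries of a code. They correlated at 0.270 to 0.657 in all 6 codes (mean 0.420). Between different codes the mean was -0.0864. That value is no separate support, since P1D7 deviations were taken from the mean of the same 6 codes, which largely fixes it. The rule for named genes is given with them, and since no symbol was matched (RefSeq table of 40596 genes, 0 with an Ensembl identifier), the planned lists of junction, transporter, receptor and cell type marker genes were not run. Alternatives used DESeq2 1.42.0, limma 3.58.1 (log2 of FPKM plus 0.1 or 1), other scalings, filters, thresholds and libraries left out. The main fit was also run on data simulated from its own model, with few changed genes and the same change in every code. Those settings differ from the data, where many genes were called and BBB035 changed less.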

Additional observations from a re-analysis of the deposited data

Results flagged for a closer look

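In 2 of 19 sets of 6 or 8 values, 1 library lay further from the others than the usual limit for a single extreme value, which chance exceeds in about 1 of 20 sets. ENSMFAG00000045186 stood at 42.8 FPKM in P1D7 replicate 4 (BBB032), with the other 5 P1D7 libraries at 14.0 to 19.0 FPKM, all above the highest P0D7 library at 3.60. ENSMFAG00000028248 stood at 1.19 FPKM in P1D7 replicate 5 (BBB035), with the highest P1D7 level of a gene whose P0D7 levels started at 11.7 FPKM, in the same code.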

How the results depend on the processing

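The called genes numbered 1354 higher and 1359 lower. Without the replicate block they numbered 759 and 1125, in all 22 cortical libraries fitted together without it 764 rose, and in DESeq2 without it 826 rose. Scaling to library size alone gave 868 and 2211, limma 866 and 2182 at a pseudocount of 0.1 FPKM, and 686 higher at 1 FPKM. Without a fold threshold 2628 and 2754 were called, and at 2-fold 604 and 753. P0D7 libraries of brainstem in place of cortex gave 877 and 753, and of striatum 803 and 804. Leaving out 1 library at a time gave 1111 to 1690 higher and 1165 to 1666 lower, the highest without either library of BBB035. The other alternatives, among them DESeq2 with the block, other scalings and other filters, kept both counts within 1.5 times. For the share of counts in the 100 most abundant genes, the comparison of all 14 libraries without the block gave a difference of 6.12 percentage points (exact permutation, adjusted p = 0.001998), and leaving out a code 6.54 to 7.28. For genes with at least 1 FPKM, the difference was -141 without the block (adjusted p = 0.004496) and -386 at 5 FPKM (adjusted p = 0.04688), and -155 to -113 with a code left out. The difference in total counts was -1604950 to -214844.8 with a code left out. The causes were not tested. The 4 identifiers were picked for large changes with 1 direction in 6 of 6 codes, so their stability was largely set by that choice. Some alternatives, such as the fold thresholds, also reuse the main fit. Under the block, leaving out either library of a code gives nearly the same fit, and leaving out BBB027 or BBB028 nearly returns the main one. The alternative values are thus not separate checks. The direction and call of the 4 were kept under all 148 alternative values computed for them, with the highest adjusted p at 0.00178. Their log2 fold changes ranged from 3.55 to 5.16 (ENSMFAG00000045186), 3.62 to 5.30 (ENSMFAG00000043096), -8.48 to -5.68 (ENSMFAG00000028248) and -4.93 to -3.96 (ENSMFAG00000035516). With 6 codes, an exact test of 1 measure cannot go below 0.03125.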
